A study of Mus musculus with 60 samples.

Results

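The bacteria described here are the Lachnospiraceae that the deposited taxonomy names to a genus, Blautia being the best known of them. They were chosen as every sequence feature, that is every distinct amplicon sequence, whose lineage holds the family Lachnospiraceae and a genus name other than the NK4A136 group, "uncultured" or the family's own name. The choice used names and no measured values. It took 488 of 8574 features, 54 of 567 genus labels and 587305 counts, which were 3.44% of all bacterial and archaeal counts. The family held another 770 features under the NK4A136 group or without a genus name.

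Lachnospiraceae are anaerobic Clostridia of the large intestine that ferment fibre, host glycans and lactate to short-chain fatty acids. Several genera make butyrate, the main fuel of colon cells, others make acetate or exchange hydrogen with their neighbours, and a small branch of the family lives in the mouth. Mouse stool usually holds many family members that were never cultured, beside a smaller share of named genera, many of which were first described from human stool.

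Bacterial 16S rRNA genes were sequenced over their V3 to V4 stretch, as paired reads of 300 bases, in samples of 12 male mice, 6 per arm. Exposed mice were gavaged with polyethylene terephthalate (PET) nanoparticles, made of the plastic used for drink bottles, at a daily 0.5 mg in a volume of 0.1 ml over 28 days, and control mice were not exposed to nanoplastic. No label mentions a gavage of control mice, and the sources used here give neither strain nor age. The 60 libraries made 10 groups of 6: PET and control colon tissue, lung tissue, oral swabs and stool at day 28, and PET and control stool after 1 week. Total counts per library ran from 59063 to 280575 in colon, from 10543 to 326834 in lung, from 119454 to 428830 in oral swabs, from 245032 to 602305 in day 28 stool and from 16521 to 1083575 in week 1 stool. Per the labels, DNA of lung and colon came from a blood and tissue kit and DNA of stool and oral swabs from a soil-type kit, so that kit and site cannot be told apart in any comparison of tissue with stool. The site labels were set against taxa known for each site. Muribacter, a rodent mouth genus, made 50.1% of PET and 51.3% of control oral swab counts, and Helicobacter, which lives in colon mucus, made 66.6% of PET and 63.5% of control colon counts. Bacteroides made 11.6% of PET and 9.23% of control day 28 stool counts, and no defining taxon is known for lung. Bacteroides does not set stool apart from lung, where it made 5.66% ± 5.55 of PET and 15.5% ± 17.2 of control counts (SD). Alistipes, also a stool taxon, made 6.66% of PET and 5.89% of control day 28 stool counts. In lung Alistipes made 0.582% ± 0.303 of PET and 1.90% ± 2.24 of control counts. All levels below are shares of bacterial and archaeal counts, so a genus with more cells and a genus whose neighbours have fewer cannot be told apart. The labels do not say which animal a library came from, and p-values measure the spread between libraries.

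Some libraries stood apart in the genera common in lung. Faecalibacterium, a butyrate producer of another family that averaged 1.76% ± 1.12 in PET and 4.21% ± 3.03 in control lungs (SD, n = 6 here and below unless stated), was over 5 times the next library of its group in 5 libraries outside lung. PET colon 5 had 6.72% against 0.346% in the next, control colon 2 had 0.654% against 0.0870%, PET swab 2 had 4.28% against 0.150%, control day 28 stool 1 had 0.0893% against 0.00531%, and PET week 1 stool 6 had 0.132% against 0.0233%. The same libraries held 18, 24, 31, 27 and 31 named genera, of which 2, 6, 10, 12 and 6 were in no other library of their group. In the same order, the other libraries of each group held 15 to 25, 9 to 14, 9 to 22, 12 to 17 and 14 to 23. PET swab 2, control day 28 stool 1 and PET week 1 stool 6 were also the deepest libraries of their groups.

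The named genera together held their highest share in lung and their lowest in oral swabs. In lung the summed share ran from 2.49% to 27.2% with a median of 5.93% in PET libraries, and from 3.59% to 15.2% with a median of 11.5% in control libraries. The highest value, in PET lung library 6, had a 95% Wilson interval of 26.3% to 28.1%, which covers counting error only, and came from the shallowest library of the study. In oral swabs it ran from 0.0453% to 8.14% with a median of 0.241% in PET libraries, and from 0.387% to 1.30% with a median of 0.501% in control libraries. Colon spread widely in both arms, at 0.333% to 6.97% with a median of 2.18% in PET and 0.162% to 3.18% with a median of 1.65% in control libraries. Stool was more even. At day 28 it ran from 2.84% to 5.47% (median 3.88%) in PET and from 2.82% to 6.96% (median 4.07%) in control libraries, and at week 1 from 2.75% to 5.20% (median 3.17%) in PET and from 1.58% to 3.58% (median 2.45%) in control libraries. The arms overlapped at every site and time.

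The part of the family that carried a genus name was highest in lung. Named genera made 87.2% ± 6.15 of the Lachnospiraceae counts of PET lung and 85.5% ± 9.83 of those of control lung (SD). They made 16.4% ± 5.71 in PET and 16.95% ± 4.89 in control day 28 stool. The lowest lung library stood at 72.7%, and 1 oral swab library, PET swab 2, lay above it at 80.4%. Oral swabs and colon lay between, with 30.2% ± 24.8 in PET and 36.5% ± 12.99 in control swabs, and 28.9% ± 12.2 in PET and 21.8% ± 11.8 in control colon. Week 1 stool had 18.2% ± 4.38 in PET and 12.77% ± 4.35 in control libraries. The whole family held 11.4% of PET and 12.6% of control lung counts, against 25.2% of PET and 25.8% of control counts in day 28 stool.

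**Figure D1:**
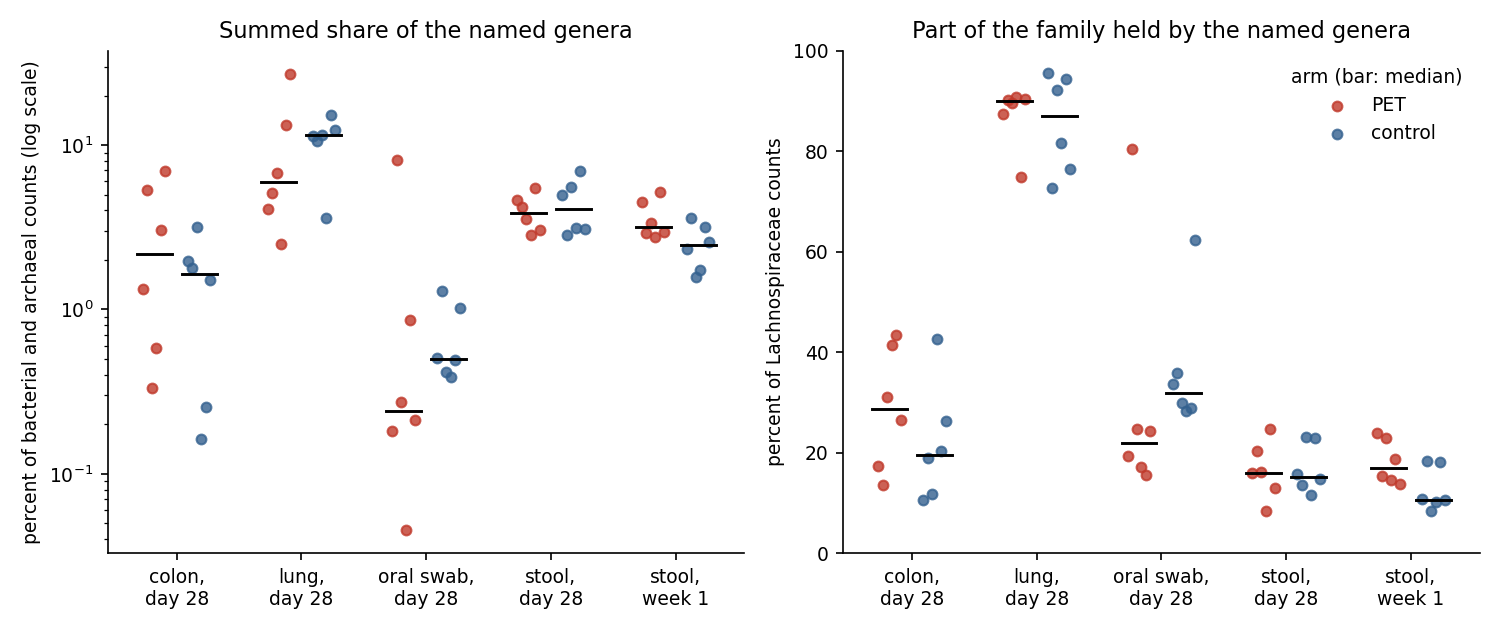
Summed share of the named genera in percent of bacterial and archaeal counts (left, log scale) and in percent of Lachnospiraceae counts (right), by site and time; each point is 1 library, PET left of control, and bars are medians. Lung libraries stand at 72.7% or more of the family's counts, a level that 1 PET oral swab library also reaches, at 80.4% of the family's counts and 8.14% of all counts.

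Which genera led depended on the site. In lung, Blautia made 20.7% ± 9.06 of the named counts (SD, n = 12 for the shares of named counts), Coprococcus 10.4%, the Ruminococcus torques group 7.37% and Dorea 6.34%. Blautia also led in colon, at 18.7% ± 9.55, ahead of the Eubacterium xylanophilum group at 13.6% and Roseburia at 10.9%, and in oral swabs, at 18.5% ± 9.31, ahead of Agathobacter at 12.8%. In day 28 stool the provisional group UCG-006 led with 18.8%, followed by Lachnoclostridium at 14.2%, Roseburia at 13.8% and the E. xylanophilum group at 13.6%. In week 1 stool Lachnoclostridium led with 27.6% ± 6.45. The 10 most abundant genera held 74.8% of all named counts, and 7 genera were seen in 1 library each. Square brackets and joining marks in the deposited names are left out here.

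**Figure D2:**
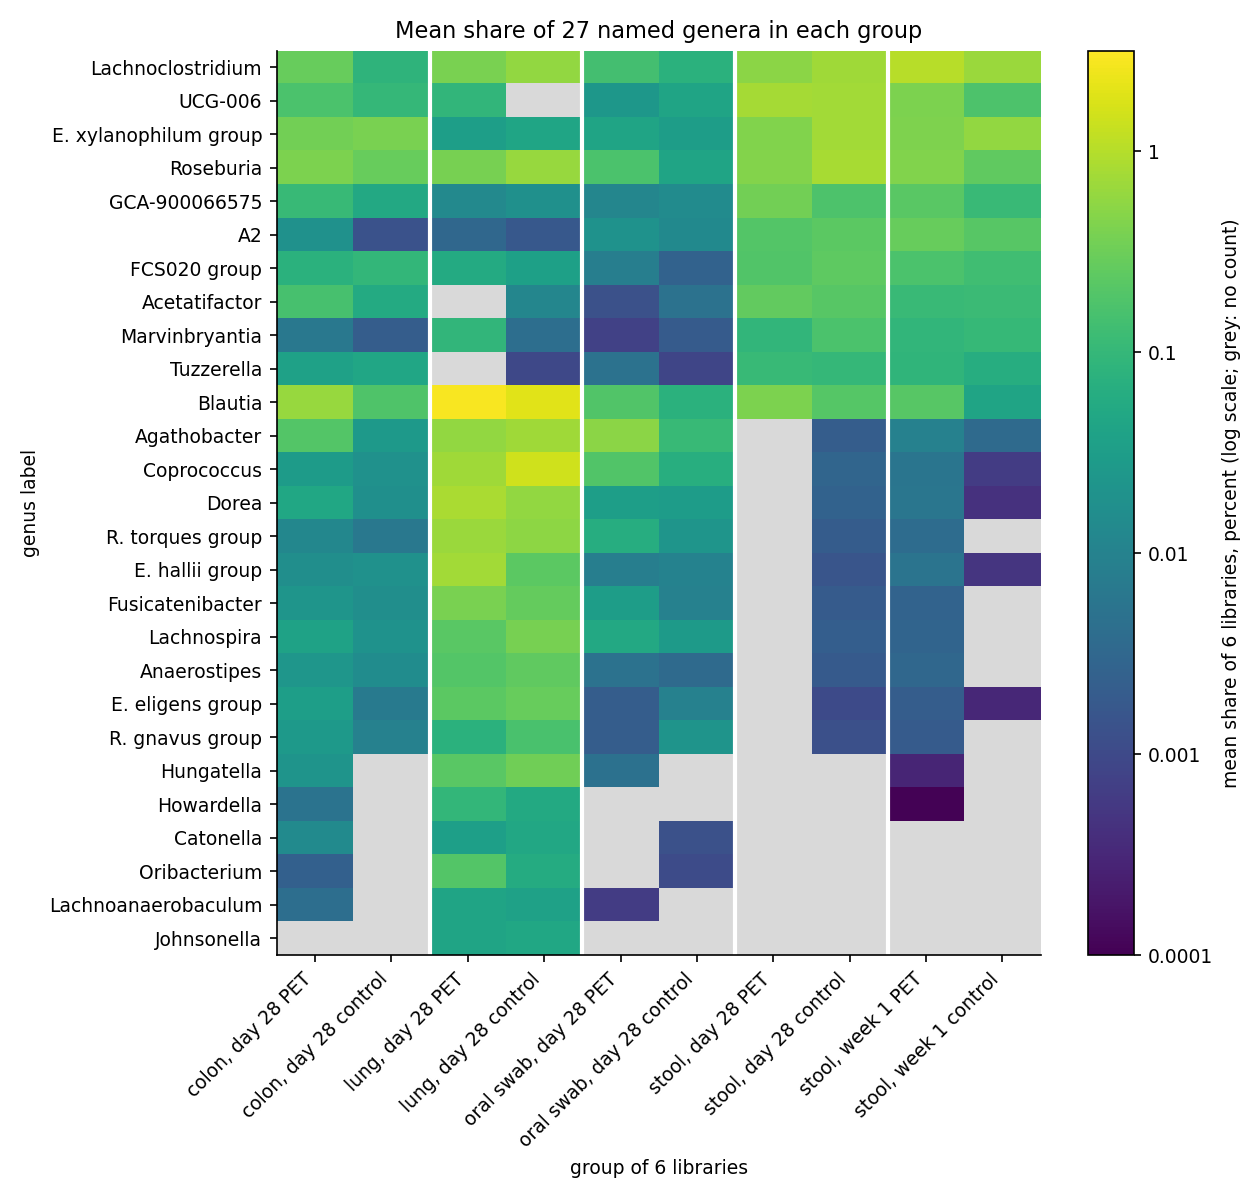
Mean share of 27 of the named genera in every group (columns, PET left of control at each site; colour on a log scale of percent of counts, n = 6 libraries a group; grey cells had no count). Agathobacter, Coprococcus and Dorea are coloured in both lung groups and grey in PET day 28 stool, and UCG-006, A2 and Acetatifactor are brighter in the stool groups of both times than in lung, where some cells are grey.

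Many genera found in lung had no count in stool. Of 54 genera, 48 had a count in lung, and 17 of these had none in any of the 12 day 28 stool libraries. Without control stool library 1, which stood apart, the 5 other control libraries lacked 29 of them, as many as the 6 PET libraries did. There were 18 genera with no count in any stool library of either time, 6 were seen in lung only, and 28 were found at all 5 sites and times. At a common depth of 10083 counts, the expected number of named genera was 20.7 ± 4.58 in PET and 25.3 ± 3.20 in control lung, against 12.8 ± 1.11 in PET and 13.6 ± 3.42 in control day 28 stool. The other expected numbers were 16.9 ± 3.54 in PET and 11.9 ± 5.30 in control colon, 12.3 ± 7.47 in PET and 14.2 ± 2.52 in control oral swabs, and 15.04 ± 3.45 in PET and 11.4 ± 1.35 in control week 1 stool.

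Each of colon, lung and oral swab was compared with the same 12 day 28 stool libraries, on counts summed by genus, with edgeR's quasi-likelihood test adjusted over all genera (threshold 0.05). In lung, 22 of the 42 named genera tested were higher than in stool and 8 were lower, where 63.6% of all 258 genera tested were called higher and 17.8% lower. Of the 22, 7 had no count in stool, so that they passed the low-count filter through lung alone and could not have been called lower. Others, such as Agathobacter, Dorea and the Ruminococcus torques group, had a count in 1 day 28 stool library. They met the filter, which asks for a count in 3 libraries, only with lung counts. The median log2 fold change was 5.02 over the named genera and 6.51 over all genera, so the named genera as a whole did not stand above the background. In oral swabs 15 of 33 were higher and 5 lower, against 56% and 13.5% of all genera, with medians of 2.02 and 5.85. In colon 12 of 33 were higher and 1 lower, against 32.9% and 5.2%, with medians of 0.66 and 1.39. In either direction the calls were 30 of 42 in lung, 20 of 33 in oral swabs and 13 of 33 in colon, against 81.4%, 69.5% and 38.2% of all genera. With TMM, the edgeR scaling used here, the medians of all genera lie far from 0. They shift with the scaling, by -5.47 in lung, -4.92 in oral swabs and -1.10 in colon when limma is run on centred log ratios instead. The colon median of all genera was then 0.29. The splits of the named genera moved too. Between the other 4 scalings (TMMwsp, library totals, DESeq2 and limma on centred log ratios) they were 21 higher and 10 lower, 22 and 6, 17 and 11, and 14 and 12 in lung. In oral swabs they were 13 and 12, 13 and 13, 11 and 10, and 9 and 14, and in colon 12 and 4, 12 and 4, 9 and 4, and 12 and 11. Genera are described below as higher or lower than in stool where they passed the threshold in all 5 scalings, which held for 13 higher and 6 lower genera in lung, 9 and 4 in oral swabs and 9 and 1 in colon. Every genus so called higher had a count in at most 2 of the 12 stool libraries. It thus met the low-count filter only with counts of the other site. In reverse, UCG-006, Acetatifactor, Tuzzerella and A2 had a count in 1 or 2 lung libraries and met it only with stool. All 5 scalings used this filter, so their agreement is no separate support for a direction.

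Agathobacter, a leading butyrate producer of the human colon, was higher than in stool in lung, oral swabs and colon. It had a count in all 12 lung libraries, at 0.0477% to 2.17% (median 0.358%) in PET and 0.0937% to 1.42% (median 0.692%) in control lungs, and in 1 of 12 day 28 stool libraries, a control library at 0.0126%. No lung library fell within the range of stool. The log2 fold change of lung over stool was 9.54 ± 1.64 (SE; edgeR, adjusted p = 2.67e-06) and ran from 6.99 to 10.99 over the scalings. Oral swabs all held it too, at 0.00409% to 3.03% (median 0.0279%) in PET and 0.00817% to 0.372% (median 0.0381%) in control swabs, with a log2 fold change over stool of 12.29 ± 1.67 (edgeR, adjusted p = 5.7e-06; 7.33 to 12.29 over the scalings). Colon held it in 10 of 12 libraries, with a median of 0.0279% in PET and 0.0209% in control colons and a log2 fold change of 8.79 ± 1.75 (edgeR, adjusted p = 0.000147; 5.78 to 8.79 over the scalings).

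Other butyrate producers went the same way. Coprococcus averaged 0.710% ± 0.864 in PET and 1.53% ± 1.89 in control lungs, with 21837 counts in 11 of 12 lung libraries against 95 counts in 2 of 12 stool libraries. Its log2 fold change of lung over stool was 10.21 ± 1.59 (edgeR, adjusted p = 4.32e-07), and it was also higher in oral swabs and colon. The Eubacterium hallii group, which turns lactate and acetate into butyrate, had 0.0591% to 2.91% (median 0.143%) in PET and 0.0156% to 0.539% (median 0.202%) in control lungs, and was found in 1 stool library at 0.00930%. Anaerostipes, another lactate user, averaged 0.195% ± 0.141 in PET and 0.249% ± 0.312 in control lungs and was at 0 in 11 of 12 stool libraries. Over the scalings, the log2 fold changes of lung over stool ran from 6.04 to 10.55 for the E. hallii group and from 5.27 to 9.48 for Anaerostipes.

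The butyrate producers most common in stool did not follow them. Acetatifactor, first isolated from a mouse caecum, was in all 12 day 28 stool libraries, at 0.0377% to 0.466% (median 0.255%) in PET and 0.0156% to 0.377% (median 0.260%) in control libraries. In lung it had 10 counts, all in 1 control library, and in oral swabs 140 counts in 3 libraries. Its log2 fold change was -9.09 ± 1.81 in lung over stool (edgeR, adjusted p = 2.06e-05; -10.99 to -8.39 over the scalings), and it ran from -8.84 to -3.89 in oral swabs over stool. The E. xylanophilum group averaged 0.0328% ± 0.0468 in PET and 0.0442% ± 0.0406 in control lungs, against 0.436% ± 0.188 in PET and 0.744% ± 0.689 in control day 28 stool, with no overlap between lung and stool libraries. Roseburia, a motile butyrate producer, had similar means in lung (0.384% ± 0.391 in PET, 0.641% ± 0.638 in control) and stool (0.457% ± 0.336 in PET, 0.807% ± 0.869 in control), and its log2 fold change of -0.80 ± 0.88 did not pass with TMM (edgeR, adjusted p = 0.412). It was negative in all 5 scalings, from -4.34 to -0.29, and passed as lower with TMMwsp, DESeq2 and limma but not with library totals.

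Among genera that make acetate or handle hydrogen, Dorea and Fusicatenibacter, both sugar fermenters known from human stool, were higher at all 3 sites than in stool. Dorea averaged 0.838% ± 0.954 in PET and 0.585% ± 0.493 in control lungs and was at 0 in 11 of 12 stool libraries, which gave log2 fold changes of 6.57 to 10.93 over the scalings. Fusicatenibacter averaged 0.395% ± 0.595 in PET and 0.271% ± 0.133 in control lungs, with a lowest lung library of 0.0534%, above its 1 stool library at 0.0116%. Marvinbryantia, an acetogen that uses formate, was in all 12 day 28 stool libraries, at 0.0904% ± 0.129 in PET and 0.171% ± 0.131 in control stool. It was found in 3 of 12 oral swab libraries and was lower there in all scalings (log2 fold change -7.84 to -3.92).

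Blautia, an acetate-forming genus that can live on hydrogen and carbon dioxide, was the most widespread member, with counts in 59 of 60 libraries and 41 sequence features. In lung it ran from 0.471% to 10.1% (median 0.959%) in PET and from 0.624% to 3.60% (median 2.03%) in control libraries. In day 28 stool it ran from 0.0288% to 1.15% (median 0.332%) in PET and from 0.0652% to 0.636% (median 0.101%) in control libraries. Lung and stool overlapped, although the mean over 12 libraries was 2.42% in lung and 0.310% in stool. The other means over 12 libraries were 0.413% in colon, 0.132% in oral swabs and 0.128% in week 1 stool. The fitted log2 fold change of lung over stool was 2.11 ± 0.83 (edgeR, adjusted p = 0.0176) but ran from -0.68 to 3.03 over the scalings. In oral swabs it was 2.02 ± 0.56 (edgeR, adjusted p = 0.00258) although the mean share there was below that of stool, and it ran from -1.73 to 2.02, while in colon it ran from -0.45 to 1.99. No direction for Blautia as a genus between sites therefore holds over the scalings.

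The genera known to use mucin or pectin were each found in 1 of 12 day 28 stool libraries and in most lung libraries. The R. torques group, which degrades mucin, was in all 12 lung libraries, at 0.233% to 1.85% (median 0.475%) in PET and 0.124% to 1.12% (median 0.497%) in control lungs, and in 1 stool library at 0.0123%. Its log2 fold change of lung over stool was 9.96 ± 1.62 (edgeR, adjusted p = 1.15e-06). The R. gnavus group, also a mucin user, was in all 6 PET colons at 0.0120% to 0.0485% (median 0.0266%) and in 3 of 6 control colons, up to 0.0388%, and in 1 of 12 stool libraries, at 0.00764%. Its log2 fold change of colon over stool was 6.94 ± 1.71 (edgeR, adjusted p = 0.00146; 4.67 to 6.94 over the scalings). Lachnospira, a pectin fermenter, averaged 0.222% ± 0.178 in PET and 0.371% ± 0.283 in control lungs and was at 0 in 11 of 12 stool libraries, with log2 fold changes of lung over stool from 5.73 to 9.77. The E. eligens group, which also ferments pectin, had log2 fold changes of 3.64 to 6.24 in colon and 2.39 to 8.14 in oral swabs over stool.

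The mouth genera of the family were found in lung, all but Johnsonella and Shuttleworthia also in PET colon, and never in stool. Oribacterium was in 5 of 12 lung libraries, at 0.667% and 0.536% in PET and 0.0168%, 0.264% and 0.0761% in control lungs, and its pooled share was at least 1968-fold higher than in day 28 stool, or at least 765-fold without PET lung 1, taking 3 counts over all stool libraries as the limit of a count of 0. Lachnoanaerobaculum was in 4 lung libraries (at least 959-fold, or 535-fold without PET lung 1), and Johnsonella and Catonella in 3 each (at least 1030-fold and 816-fold, or 580-fold and 467-fold without control lung 4). None of the 4 passed in all 5 scalings, since limma gave adjusted p from 0.0626 to 0.386, and as they had no stool count, lung alone brought them into the test. Stomatobaculum had 63 and Shuttleworthia 47 lung counts, each in 1 PET library. In oral swabs Oribacterium had 18 counts, Catonella 34 and Lachnoanaerobaculum 13, each in 1 library, and the other 3 had none. PET lung library 1 held 5 of the 6 genera at 0.0512% to 0.667%, and control lung library 4 held 4 of them at 0.193% to 0.275%. Over the 6 genera the summed share was 0.342% ± 0.573 in PET and 0.194% ± 0.373 in control lungs.

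Other genera with a lung level and no day 28 stool count were Hungatella, the Ruminococcus gauvreauii group and Howardella, a genus described for splitting urea. Hungatella was in 3 of 6 PET lungs (up to 0.700%) and 4 of 6 control lungs (up to 0.960%), at least 7651-fold higher than in stool, or 4108-fold without control lung 1. The R. gauvreauii group was in 9 of 12 lung libraries (at least 722-fold) and Howardella in 10 (at least 1330-fold, or 728-fold without control lung 1). All 3 passed in all 5 scalings, and lung alone brought them into the test. Howardella averaged 0.0939% ± 0.0746 in PET and 0.0537% ± 0.0656 in control lungs and had no count in any oral swab. These folds take the pooled share of lung as it is and leave out its spread between libraries.

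Of the labels that belong to mouse gut or provisional groups, 4 were lower in lung than in stool in all 5 scalings (UCG-006, A2, Tuzzerella and GCA-900066575). The ND3007 group, a provisional label outside that list and named after its values were seen, was higher in lung and oral swabs in all 5 scalings (log2 fold changes of 3.34 to 8.19 and 3.33 to 8.17). UCG-006, a group known from uncultured sequences, had 0.222% to 1.89% (median 0.327%) in PET and 0.199% to 1.86% (median 0.447%) in control day 28 stool. In lung it had 110 counts, all in PET library 5, where it stood at 0.555%. Its log2 fold change of lung over stool was -9.32 ± 1.57 (edgeR, adjusted p = 1.99e-06; -18.22 to -8.50 over the scalings). A2 was in all 12 day 28 stool libraries, at 0.0817% to 0.285% (median 0.227%) in PET and 0.0633% to 0.592% (median 0.193%) in control stool. It was in 2 lung libraries, at most 0.0191%, and in 4 colon libraries, at most 0.0617%, so that neither tissue overlapped stool. Its log2 fold change was -6.49 ± 1.50 in lung (edgeR, adjusted p = 0.000122) and -3.44 ± 1.24 in colon (edgeR, adjusted p = 0.0229), and it was the 1 named genus lower in colon than in stool. Tuzzerella, at 0.107% ± 0.0391 in PET and 0.0997% ± 0.0469 in control day 28 stool, had 6 counts in lung and was lower in oral swabs as well. GCA-900066575 averaged 0.0133% ± 0.0306 in PET and 0.0183% ± 0.0186 in control lungs, against 0.353% ± 0.160 in PET and 0.177% ± 0.0553 in control day 28 stool, without overlap. The FCS020 group was lower in oral swabs (log2 fold change -7.72 to -2.44 over the scalings). Lachnoclostridium, a mixed genus of former clostridia, did not pass in lung with TMM (log2 fold change -0.64 ± 0.95; edgeR, adjusted p = 0.557). It was negative in all 5 scalings, from -5.86 to -0.34, and passed as lower with DESeq2 and limma.

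By role, the counts past the threshold with TMM in lung were 4 higher and 2 lower of 8 butyrate producers tested, 3 higher and 1 lower of 4 acetate and gas exchange genera, 3 higher of 3 mucin or pectin degraders and 3 higher and 5 lower of 14 mouse gut or provisional labels, beside the 63.6% higher and 17.8% lower of all genera. The 4 mouth genera tested had no stool count, so their direction was fixed by the filter. So was that of 1 of the 3 higher mouse gut or provisional labels. The mucin or pectin degraders, the higher butyrate producers, Dorea and Fusicatenibacter had a count in 1 or 2 stool libraries. They met the filter only with counts of the other site, here and in the comparisons that follow. In oral swabs the same lists gave 4 higher and 1 lower of 8, 3 and 1 of 4, 3 and 0 of 3, no mouth genus, and 1 and 3 of 12, beside 56% and 13.5% of all genera. In colon they gave 4 and 0 of 8, 2 and 0 of 4, 3 and 0 of 3, 0 of 1 mouth genus, and 0 and 1 of 12, beside 32.9% and 5.2%. These shares and counts move with the scaling. Relatives outside the chosen genera also went both ways with TMM. The NK4A136 group and the unclassified Lachnospiraceae were lower in lung than in stool, and of butyrate producers of other families Faecalibacterium, Subdoligranulum, Flavonifractor and Butyricimonas were higher in lung and oral swabs, while Odoribacter and Oscillibacter were lower in both.

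Under some genus names, different sequence features were found at different sites. The most abundant Blautia feature held 40.9% of the genus's counts and was in 7 colon, 1 lung, 12 oral swab, 12 day 28 stool and 10 week 1 stool libraries. It averaged 0.212% of day 28 stool, and its log2 fold change of lung over stool was -7.16 (edgeR on features, adjusted p = 0.00203). The second Blautia feature held 18.8% of the counts and was in 11 colon, 12 lung, 12 oral swab, 1 day 28 stool and 10 week 1 stool libraries. It averaged 1.09% of lung and 0.00242% of day 28 stool, with a log2 fold change of 8.90 (edgeR on features, adjusted p = 0.000202). The sixth feature resembled the second, with 11 lung and 2 day 28 stool libraries, and the fifth resembled the first, with 0 lung and 11 day 28 stool libraries.

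Roseburia and Lachnoclostridium, whose totals passed as lower in lung in 3 and 2 of the 5 scalings, were split in the same way. The 5 most abundant of 50 Roseburia features were in 0, 2, 0, 0 and 0 lung libraries but in 8, 7, 6, 10 and 3 day 28 stool libraries, while the sixth was in 10 lung libraries and 1 stool library, at a mean of 0.174% of lung and 0.000511% of stool (log2 fold change 10.48; edgeR on features, adjusted p = 0.000119). The 5 most abundant of 42 Lachnoclostridium features were in 1, 2, 2, 0 and 0 lung and in 9, 12, 12, 4 and 1 day 28 stool libraries, and the sixth was in 7 lung libraries and no day 28 stool library. Agathobacter was nearly 1 sequence: its first feature held 83.1% of the counts and was in 8 colon, 10 lung, 12 oral swab, 1 day 28 stool and 10 week 1 stool libraries.

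**Figure D3:**
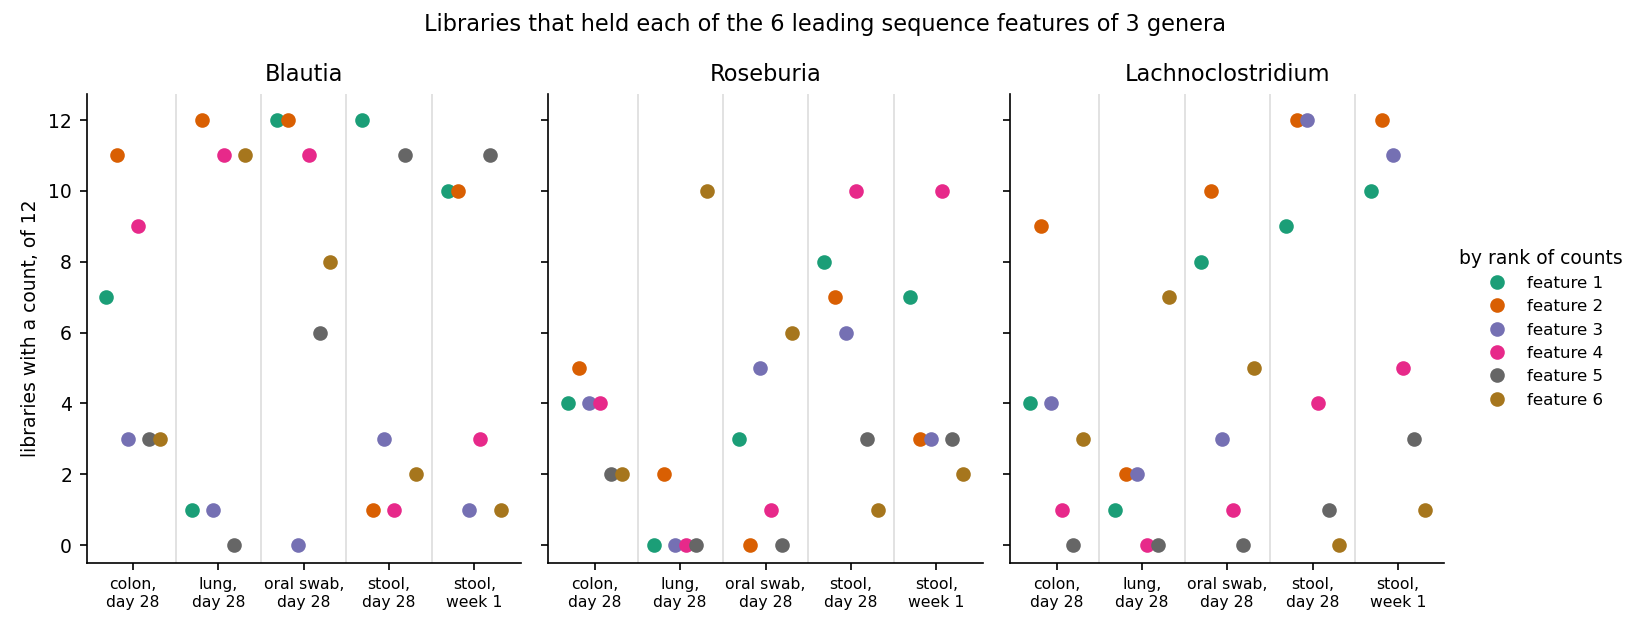
Number of libraries, of 12 per site and time, with a count of each of the 6 most abundant sequence features of Blautia, Roseburia and Lachnoclostridium. Blautia feature 2 is in 12 lung libraries and 1 day 28 stool library, and feature 1 is in 1 lung library and 12 day 28 stool libraries.

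Tested as features, 41.98% of the named Lachnospiraceae features tested (55) were higher in lung than in stool and 47.3% (62) were lower, against 33.4% and 56.5% of all 1157 features. In 9 genera, Blautia, Roseburia and Lachnoclostridium among them, some features were higher and others lower. Some called features, such as Blautia feature 5 in lung, had no count at the site or none in stool, so their direction was fixed by the filter. In oral swabs 38.2% (42) were higher and 33.6% (37) lower, against 25.4% and 33.1% of all features, and in colon 24.3% (26) and 23.4% (25), against 14.7% and 28.6%. Features were sparse: 58.4% of the 488 were seen in 1 library, against 73.8% of all bacterial and archaeal features and 60.4% of the other Lachnospiraceae features. The median classifier confidence, a fraction deposited with each lineage, was 0.964 over the 488, and the lowest was 0.702.

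The counts of each library were also sorted by where else each feature was found. Of the named counts of a lung library, 69.4% ± 17.2 in PET and 67.2% ± 22.6 in control lay in features found in at least 3 oral swab libraries but not in 3 day 28 stool libraries. For all bacteria and archaea these values were 25.9% ± 11.7 in PET and 39.2% ± 15.3 in control lungs. Features found in stool but not in swabs held 0.859% of the named counts of PET and 0.224% of those of control lungs, and features in neither held 27.5% ± 20.1 in PET and 32.4% ± 22.7 in control lungs. Colon was mixed, with 40.5% ± 35.5 of PET and 40.4% ± 32.1 of control counts in the oral swab class and 30.3% ± 27.2 of PET and 32.1% ± 22.1 of control counts in the stool class. Week 1 stool, which took no part in the sorting, had 4.65% of PET and 0.448% of control counts in the oral swab class, and 35.1% of PET and 48.6% of control counts in the stool class. A feature shared between libraries shows the same amplicon and does not show where the cells came from.

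**Figure D4:**
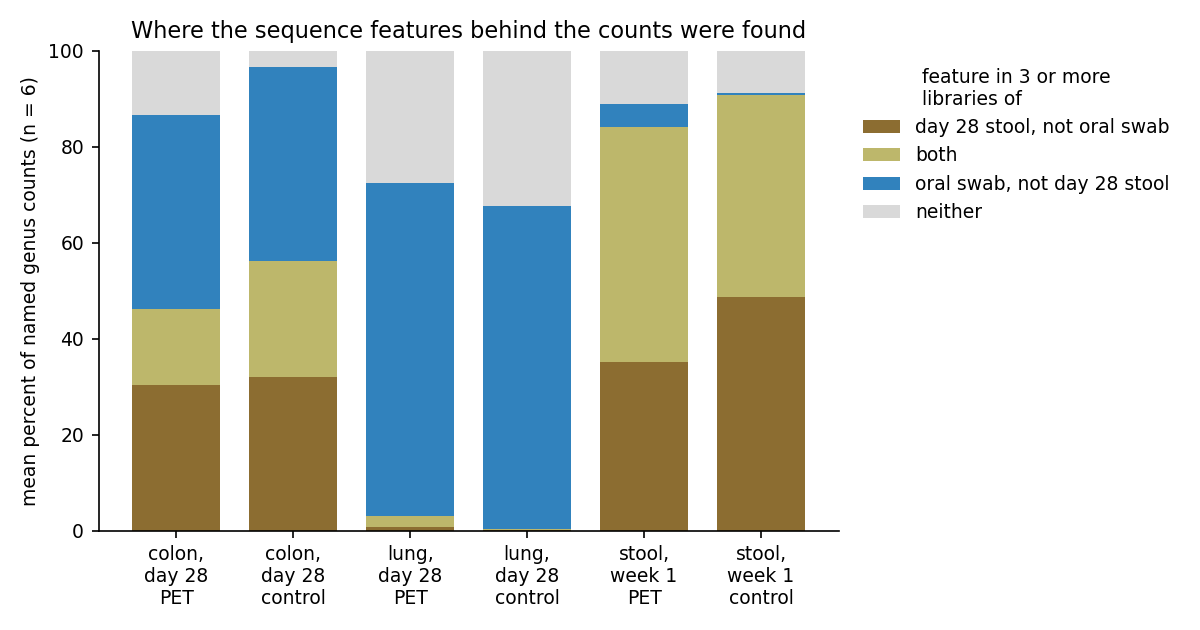
Mean part of the named Lachnospiraceae counts of a library, in percent, that lay in features found in at least 3 oral swab libraries only, at least 3 day 28 stool libraries only, both or neither (stacked bars, n = 6 libraries a group, PET left of control). The oral swab class holds 69.4% in PET and 67.2% in control lungs, and 4.65% in PET and 0.448% in control week 1 stool.

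In the exposure comparisons, PET over control within each site and time, 1 named genus passed the threshold. In week 1 stool, day 28 stool, lung and oral swabs no named genus passed, of 21, 18, 35 and 27 tested (edgeR), and no genus of any kind did, so that percent called was 0 in all 4. At an unadjusted p under 0.05 the named genera gave 2, 2, 6 and 0, against 9.02%, 8.26%, 8.58% and 5.11% of all genera. In colon 1 of 25 was higher and none was lower, against 13.7% and 2.16% of all genera, and 2 of 25 had an unadjusted p under 0.05, against 19.4% of all genera. The median log2 fold change of the named genera was 0.78 in week 1 stool, 0.18 in day 28 stool, 0.92 in colon, -0.59 in lung and -0.18 in oral swabs, and that of all genera 0.43, -0.04, 0.63, -0.09 and -0.18 in the same order.

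The genus that passed in colon was Catonella, a mouth genus. It stood at 0.0457%, 0.0195% and 0.0217% in PET colon libraries 1 to 3 and at 0 in the other 3 and in all 6 control colons, whose 0 counts allow up to 0.000307% over the group. These 98 counts brought it into the test, which asks for a count in 3 libraries, through PET colons alone, so that its direction was fixed by that filter (log2 fold change 7.93 ± 2.67; edgeR, adjusted p = 0.0333). The call ended without any 1 of these 3 libraries, which left it untested, with DESeq2, with limma, without the low-count filter (adjusted p = 0.0521) and in an exact two-sided permutation test per genus (p = 0.0216, adjusted p = 0.174). Over all alternatives its adjusted p ran from 0.0174 to 0.457. It also ended when control colon 1, 2, 3, 4 or 6 was left out. Lachnoanaerobaculum was in PET colons 2 and 3 and Oribacterium in PET colon 3, and no mouth genus had a count in a control colon. The E. ruminantium group, a fibre fermenter named from the rumen, averaged 0.0565% ± 0.130 in PET and 0.00266% ± 0.00653 in control colons (log2 fold change 4.50 ± 2.26; edgeR, adjusted p = 0.256), and passed without control colon 2 (8.70, adjusted p = 0.0394). As features, 1 Blautia feature was higher in PET colons, at 0.155% ± 0.305 in 3 libraries against 0 in control colons, and 1 E. xylanophilum group feature was lower, at 0 in PET against 0.169% ± 0.311 in 5 control colons. These were 2 of 58 named Lachnospiraceae features tested, or 3.45%, against 2.35% of all features, with 1.07% of all features higher and 1.28% lower. Each of the 2 entered the test through 1 arm alone, which fixed its direction.

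In lung 5 of the 6 genera with the lowest p had no count in PET and entered the test through control lungs alone, which fixed their direction. Tyzzerella, the other one, was in 2 of 6 PET lungs, at 0.0472% and 0.00709%, and in 5 of 6 control lungs, at 0.00654%, 0.0865%, 0.0490%, 5.24% and 0.277% (log2 fold change -6.59 ± 2.19; edgeR, adjusted p = 0.210). UCG-004 was in no PET lung and in 4 control lungs, at 0.0110% to 0.221%, at least 51.3-fold lower, or 15.8-fold without control lung 2. Sellimonas, known from the human gut, was in no PET lung and in 3 control lungs, at 0.0150% to 0.290%, with 303 of its 362 counts in control lung 5, and was at least 43.7-fold lower, or 8.19-fold without that library. Leaving out PET lung 1 also cut both limits by over 1.5 times. CAG-56, UCG-010 and Moryella, chosen after their values were seen, were likewise absent from PET lungs and present in 3 or 4 control lungs. None passed (edgeR, adjusted p between 0.210 and 0.256). The shallowest lung library, with 10543 counts, was a PET library. Total counts had a median of 45970 in PET and 114839 in control lungs, so a 0 in PET lungs shows less. Control lungs 5 and 6, and no PET lung, carry labels of another number series.

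In week 1 stool the lowest p-values were those of the R. torques group, Blautia and the E. hallii group. Blautia ran from 0.0558% to 0.421% (median 0.172%) in PET and from 0 to 0.107% (median 0.0337%) in control libraries (log2 fold change 2.00 ± 0.91; edgeR, adjusted p = 0.481). The R. torques group was in 3 PET and no control libraries, up to 0.0165%, and the E. hallii group in 6 PET libraries and 1 control library (log2 fold change 3.03 ± 1.42; edgeR, adjusted p = 0.481). The R. torques group thus entered the test through PET libraries alone, which fixed its direction. In day 28 stool GCA-900066575 ran from 0.200% to 0.637% (median 0.304%) in PET and from 0.129% to 0.282% (median 0.155%) in control libraries (log2 fold change 0.997 ± 0.42; edgeR, adjusted p = 0.460), and the E. oxidoreducens group, named for a rumen bacterium, had 0 counts in PET and 20 counts in 3 control libraries. That group entered the test through control libraries alone, which fixed its direction. The E. xylanophilum group had a log2 fold change of -0.77 ± 0.52 (edgeR, adjusted p = 0.809). In oral swabs the E. ruminantium group had 0.000897% ± 0.00149 in PET and 0.0208% ± 0.0236 in control libraries, and the R. gnavus group 0.00213% ± 0.00522 in PET and 0.0212% ± 0.0488 in control libraries (edgeR, adjusted p = 0.864 for both). UCG-006 averaged 0.0238% ± 0.0338 in PET and 0.0427% ± 0.0481 in control swabs.

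Stool was sampled at day 28 and at week 1, and the comparison within each arm came from 1 fit of the 24 stool libraries. In PET stool a small set of genera common in lung and swabs was present at week 1 and had no count at day 28. Agathobacter was at 0 in all 6 day 28 libraries and at 0.00363% to 0.0231% (median 0.00755%) in all 6 week 1 libraries. The 0 counts allow up to 0.000128% over the group, so its pooled share was at least 95.2-fold lower at day 28, or 51.5-fold without PET week 1 stool 6, which held 250 of the 389 week 1 counts (log2 fold change -8.37 ± 2.24; edgeR, adjusted p = 0.0930). The E. hallii group was at 0 in all 6 day 28 libraries and at 0.00218% to 0.0177% (median 0.00314%) in all 6 week 1 libraries, at least 61.4-fold lower, or 21.8-fold without that library (edgeR, adjusted p = 0.0930). Coprococcus and Dorea were at 0 at day 28 and in 4 of 6 week 1 libraries, at least 72.2-fold and 75.3-fold lower, or 18.1-fold and 19.99-fold without that library (edgeR, adjusted p = 0.110 and 0.120). Day 28 and week 1 did not overlap for Agathobacter and the E. hallii group and did for the other 2.

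In control stool the same genera were scarcer at week 1. Agathobacter was in 1 day 28 library, at 0.0126%, and in 4 week 1 libraries, at 0.00387% to 0.00808%. The E. hallii group was in 1 day 28 library, at 0.00930%, and in 1 week 1 library, at 0.00299%. Both day 28 counts came from control library 1, which also held the only day 28 stool counts of Dorea, Fusicatenibacter, Lachnospira, Anaerostipes and the R. torques group. Without that library the fall in PET stool passed for Agathobacter (adjusted p = 0.0128) and the E. hallii group (adjusted p = 0.0255), and the fall of Agathobacter in control stool passed too (log2 fold change -7.47; edgeR, adjusted p = 0.0248). With it left out, neither genus had a count in any day 28 stool library. Both then entered the test through week 1 alone, which fixed the direction of these falls. Over all alternatives the adjusted p in PET stool ran from 0.000623 to 0.165 for Agathobacter and from 0.000633 to 0.165 for the E. hallii group.

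Across the 28 named genera tested, none passed in either arm, and 11 in PET and 6 in control stool had an unadjusted p under 0.05, against 28.3% and 18.6% of all 145 genera. Of the 28, 10 had no count in PET stool at day 28 and 1 had none at week 1. In control stool 8 had no count at week 1. For all of these the fold could go only 1 way. Lachnoclostridium, the leading genus at week 1, averaged 0.513% ± 0.233 at day 28 and 1.05% ± 0.520 at week 1 in PET stool (log2 fold change -0.99 ± 0.45; edgeR, adjusted p = 0.153), and 0.715% ± 0.541 at day 28 and 0.679% ± 0.257 at week 1 in control stool. UCG-006 averaged 0.744% ± 0.669 at day 28 and 0.172% ± 0.111 at week 1 in control stool (log2 fold change 1.85 ± 0.70; edgeR, adjusted p = 0.197). The E. ruminantium group was in 2 day 28 and no week 1 control libraries, at least 53.6-fold higher, or 4.10-fold without control day 28 stool 4, which held 189 of its 202 counts. No named genus passed for the exposure effect at day 28 minus that at week 1 (edgeR; 10 of 28 had an unadjusted p under 0.05, against 24.1% of all genera). The lowest adjusted p was 0.0627, shared by 6 genera, the R. torques group (-13.41 on the log2 scale), the E. ruminantium group (-12.45) and the E. hallii group (-9.16) among them. With 1 library left out these ran from -13.72 to -6.92, -13.06 to -7.67 and -12.43 to -3.13 (edgeR, adjusted p up to 0.9998, 0.309 and 0.9998). The R. torques and E. ruminantium groups had no count in PET day 28 or control week 1 stool. For the R. torques group, control day 28 library 1 held all 74 counts of its group, and PET week 1 library 6 held 179 of 216.

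**Figure D5:**
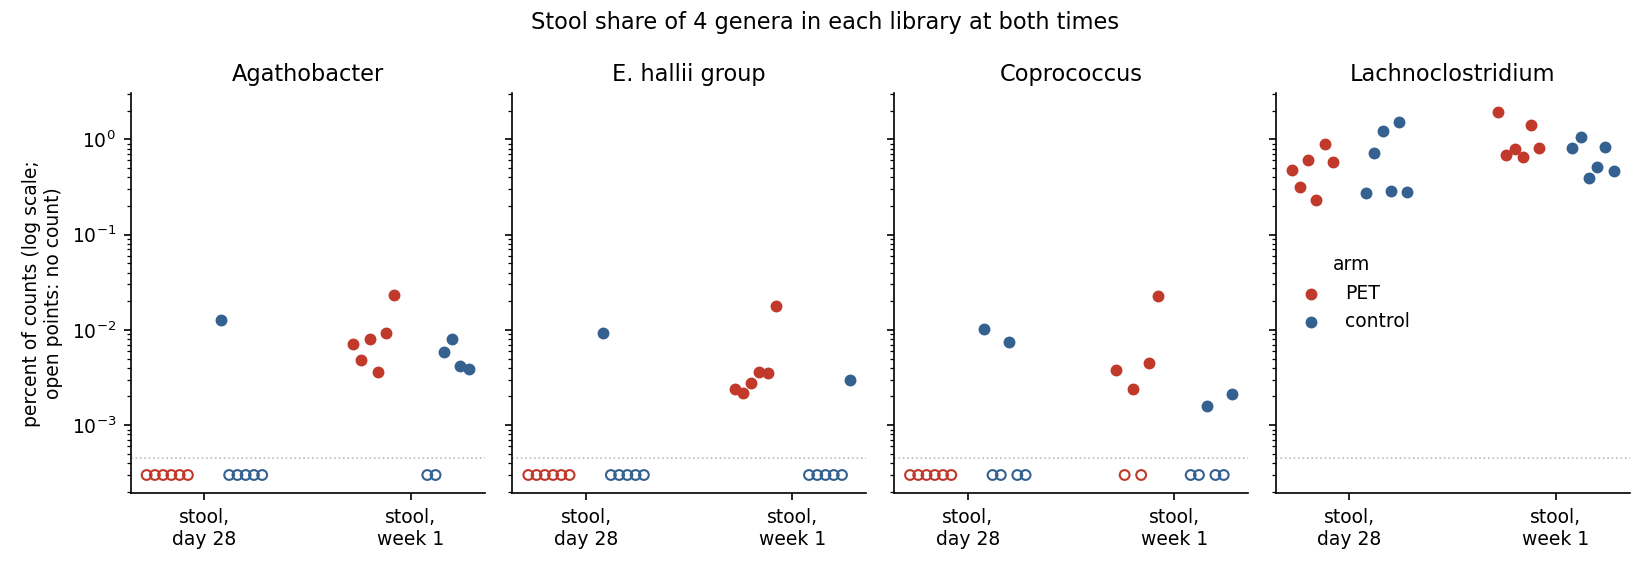
Share of 4 genera in each stool library at day 28 and at week 1 (percent of counts, log scale; open points below the dotted line had no count; PET left of control). Agathobacter and the E. hallii group have a count in all 6 PET libraries at week 1 and in none at day 28, and Lachnoclostridium has a count in every library.

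The exposure effect was also compared between sites. In colon minus day 28 stool it was higher for 11 of the 33 named genera tested and lower for none, against 23.7% and 1.16% of all 173 genera. All 11 had no count in PET day 28 stool: Agathobacter, Dorea, Coprococcus, Anaerostipes, Fusicatenibacter, Lachnospira and the E. hallii, E. eligens, E. ruminantium, R. torques and R. gnavus groups. Their fitted differences ran from 6.99 to 12.03 on the log2 scale (edgeR, adjusted p from 0.0193 to 0.0458). In each, the stool side of the contrast set 0 counts in PET against counts in 1 or 2 control libraries. The count of 11 was 0 without control stool 1, PET stool 1, control colon 2, PET colon 1 or PET colon 5, and 2, 1, 1 and 2 without PET colon 2, 3, 4 and 6. It was also 2 with TMMwsp or library totals, 1 with DESeq2 and 0 with limma. In lung minus stool 1 of 42 was higher, against 1.94% of all genera: UCG-006, at 10.46 ± 2.71 (edgeR, adjusted p = 0.0269), which rested on the 110 counts of PET lung library 5. At an unadjusted p under 0.05 the named genera gave 13 of 33 in colon minus stool and 18 of 42 in lung minus stool, against 34.7% and 19.8% of all genera.

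The part in the results of the 5 libraries that stood apart in Faecalibacterium was measured by leaving them out, an alternative chosen after seeing the data. Without all 5, Catonella in colon still passed (8.03; edgeR, adjusted p = 0.0403), the 11 differences of colon minus stool fell to 0, and Agathobacter passed as lower at day 28 in PET (-7.61; adjusted p = 0.0229) and in control stool (-7.35; adjusted p = 0.0236). Agathobacter then had no count in any day 28 stool library, so its direction was fixed by the filter.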

How the data were processed

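The members and the role lists were chosen with earlier results of these data known. The deposited table holds counts, which are whole read numbers per library for every sequence feature, without normalization, built from a biom file per the file headers. In the deposited taxonomy every feature has a lineage and, as a fraction, the classifier's confidence in it. Bowtie2, cutadapt and GRCm39, a mouse genome build, are named per the submitters' processing notes. Which denoiser, classifier and database served is not given in the sources used here. The 619 features without a taxonomy line and all features not bacterial or archaeal were left out, which kept 99.3% of counts.

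Counts were summed by genus label and fitted over all labels with edgeR 4.0.16 in R 4.3.3 (TMM, quasi-likelihood F test, Benjamini-Hochberg, threshold 0.05, unpaired). Genera needed 10 counts and a count in 3 libraries. Site and time contrasts came from fits of 24 libraries in 4 groups, site contrasts averaged over the arms. The fits were tested on simulated data. Alternatives were TMMwsp, library totals, DESeq2 1.42.0, limma 3.58.1 on centred log ratios (0.5 added to counts), exact permutation over 924 arrangements, filters, features, and libraries left out. A count of 0 over a group was read as up to 3 counts. The counts of PCR reads are not independent molecules, so limits and intervals cover counting error only.

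The text names the 7 genera given as examples of the members, the 10 most abundant, the 3 leading at each site and time, those past the threshold or else the 3 with the lowest p in exposure, time and interaction comparisons, up to 6 highest and 6 lowest per site comparison, and the mouth genera. A few others stand in counts.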

Additional observations from a re-analysis of the deposited data

Results flagged for a closer look

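Single libraries stood far from the other 5 of their group in 24 of 61 groups of values examined, by Dixon's criterion for 6 values. That criterion flags about 1 in 20 groups of independent normal values. These shares are skewed, often hold 0s and come from the same libraries for every genus. The rate therefore does not apply here, and 24 of 61 cannot be set against it. The summed share was 8.14% in PET oral swab 2. For Blautia the far values were 10.1% in PET lung 6, 0.707% in PET swab 2, 0.498% in control colon 2 and 0.636% in control day 28 stool 5. For Agathobacter they were 1.06% in PET colon 5, 2.17% in PET lung 6, 3.03% in PET swab 2 and 0.0231% in PET week 1 stool 6. For Coprococcus they were 0.143% in PET colon 5, 0.0925% in control colon 2, 2.43% in PET lung 6, 1.13% in PET swab 2, 0.274% in control swab 6 and 0.0227% in PET week 1 stool 6. For Dorea they were 0.161% in PET colon 5, 0.143% in PET swab 2 and 0.0235% in PET week 1 stool 6. PET colon 5, control colon 2, PET swab 2 and PET week 1 stool 6 also stood apart in Faecalibacterium, and PET lung 6 was the shallowest library.

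Genera of mouse stool gave far values in other libraries. Acetatifactor had 0.672% in PET colon 2, 0.250% in control colon 1 and 0.317% in PET week 1 stool 2. A2 had 0.0846% in PET swab 5, 0.713% in PET week 1 stool 3 and 0.546% in control week 1 stool 2.

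By edgeR's interaction term, 11 genera passed for the exposure effect in colon minus that in day 28 stool. All 11 had 0 counts in PET day 28 stool, and none passed with limma, the stricter low-count filter, confidence of at least 0.9, or without the 5 or the 4 libraries left out together. On the log2 scale, colon minus stool, the differences were 12.03 for the E. ruminantium group, 9.10 for Agathobacter, 9.67 for the E. eligens group, 9.49 for Dorea, 9.78 for the R. torques group, 8.27 for the R. gnavus group, 8.95 for Lachnospira, 8.20 for Coprococcus, 8.05 for Anaerostipes, 7.83 for Fusicatenibacter and 6.99 for the E. hallii group. Between lung and stool it differed for UCG-006, at 10.46. Fits of genera with 0 counts in a whole group depend on the prior count and give no size.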

How the results depend on the processing

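Of 547 values of single genera under alternatives other than leaving out 1 library, 439 kept their direction and their side of the threshold, 4 passed it newly, 3 reversed and the rest fell short of it. Of 171 counts of genera and summed shares, 45 moved by more than 1.5 times or by 1 SD or more. The cause of these changes was not tested unless named.

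The 1 genus called in colon by exposure became 0 with DESeq2, limma, no low-count filter, a stricter filter, classifier confidence of at least 0.9 or exact permutation, and 2 with features in place of genera, counted as genera with at least 1 called feature. Time in PET stool gave 1 with DESeq2, 2 with limma and 1 without the 5 libraries that stand apart. Time in control stool gave 1 with DESeq2 and 1 without the 5 libraries, and exposure by time gave 1 with DESeq2. Colon against stool gave 23 with limma, and oral swab against stool 13 with the stricter filter. With features, 26 genera had a called feature in colon, 31 in lung and 27 in oral swabs. The 11 calls of colon minus stool became 2 with TMMwsp and library totals, 1 with DESeq2 and no filter, and 0 with limma, the stricter filter, confidence of at least 0.9, features, without the 5 libraries or without 4 libraries whose labels follow another number series. The 1 call of lung minus stool became 2 with TMMwsp, 3 with DESeq2, 2 without the 5 libraries, and 0 with library totals, limma, the stricter filter, confidence of at least 0.9, features or without the 4 libraries. Agathobacter reversed to -0.85 and Fusicatenibacter to -0.029 in colon minus stool without the 5 libraries, and Fusicatenibacter to -0.63 with limma. Against Lachnospiraceae counts the summed shares were, in PET and control, 28.9% and 21.8% in colon, 87.2% and 85.5% in lung, 30.2% and 36.5% in swabs, 16.4% and 16.95% in day 28 stool, and 18.2% and 12.77% in week 1 stool.

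With 1 library left out, calls ran from 0 to 0 for exposure in week 1 stool, day 28 stool, lung and oral swabs and for exposure by time, 0 to 1 for exposure in colon, 0 to 2 for time in PET stool and 0 to 1 in control stool, 13 to 16 for colon, 27 to 31 for lung and 18 to 22 for swabs against stool, 0 to 11 for colon minus stool and 0 to 7 for lung minus stool. The 7 came without control day 28 stool 3. The 0 came without PET day 28 stool 4, control lung 1, 2, 5 or 6, or PET lung 5. No paired analysis was possible because the labels do not say which animal a library came from and replicate numbers were given in order only. Limits on folds against a group with no count, with each library left out in turn, were added after seeing the data and stand beside their values. Low depth in lung limits what a 0 there shows.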

Other observations

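Summed by role, butyrate producers held 2.71% ± 2.79 of PET and 3.45% ± 2.49 of control lung counts, and 1.16% ± 0.342 of PET and 1.78% ± 1.31 of control day 28 stool counts (SD, n = 6). The acetate and gas exchange genera held 4.17% ± 5.38 in PET and 2.85% ± 1.60 in control lungs, against 0.508% ± 0.377 in PET and 0.378% ± 0.209 in control day 28 stool. The mucin or pectin degraders held 0.957% ± 0.629 in PET and 1.07% ± 0.505 in control lungs, 0.0778% ± 0.0677 in PET and 0.0355% ± 0.0692 in control colons, and 0 in PET and 0.00551% ± 0.0135 in control day 28 stool. The mouse gut or provisional labels were the largest role class of day 28 stool, at 2.29% ± 0.761 in PET and 2.25% ± 1.03 in control libraries.

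UCG-001, a provisional group, averaged 0.123% ± 0.287 in PET and 0.0267% ± 0.0520 in control day 28 stool and was found in 1 oral swab library (log2 fold change of swab over stool -6.21 ± 2.29; edgeR, adjusted p = 0.0208).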
